A study of Mus musculus with 27 samples.

Results

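The interferon-stimulated genes described here were 44 genes named by symbol, taken from the 29872 genes of a count table of cultured mouse macrophages. All 44 were present and all 44 passed the filter on low counts that 14589 genes passed, so every member was tested. The macrophages were differentiated over 5 days from marrow of 8- to 10-week-old male mice, in medium with 20% bovine serum and 10% conditioned medium of L cells, and then treated for 24 h. Sequencing of poly(A) RNA gave 27 libraries in 8 groups, as read counts per gene. Of these, 15 came from knockout mice, LysM-Cre+/+; GRIP1fl/fl (KO): 3 with 10 ng/ml IL4, 4 with 500 nM corticosterone (Cort), 4 with 100 nM dexamethasone (Dex) and 4 with vehicle. The other 12 came from C57BL/6 wild-type mice (WT), with 3 libraries for each of IL4, Cort, Dex and vehicle. The genotype labels give the WT mice as LysM-Cre+/+; GRIP1wt/wt, so by these labels both genotypes carried Cre, although sample titles call the WT only by its background strain. Cre driven from the LysM (Lyz2) locus acts in myeloid cells, so other cells of a culture keep the floxed gene. GRIP1, the protein of the gene Ncoa2, is a coregulator of the glucocorticoid receptor and other transcription factors. IL4 is the cytokine of type 2 immunity, corticosterone the main natural glucocorticoid of the mouse and dexamethasone a synthetic one. The labels do not tie libraries to animals, and p-values here measure only the spread between libraries, which may be in part technical.

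Type I interferons bind the receptor IFNAR1/IFNAR2, whose kinases JAK1 and TYK2 phosphorylate STAT2 among other proteins. STAT2 pairs with the DNA-binding factor IRF9, which recognises the interferon-stimulated response element (ISRE) in the promoters of antiviral genes. Macrophages keep a low tonic level of this signalling without infection, and the products of the genes sense foreign nucleic acid, block viral entry, RNA and translation, attack the vacuoles of intracellular microbes, or feed back on the pathway.

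The ISRE shows what many members have in common in sequence. RefSeq promoter windows of 300 bases, from 250 before to 50 after a gene's start, on build GRCm38.p6, matched 34 of the 44 members. Usp18, Zbp1, Ifi204, Mx1, Mx2, Oas2, Rtp4, Dhx58, Parp9 and Parp14 had no match. The ISRE core was searched as GAAANNGAA on both strands, so that it appears as the reverse complement where it lies on the other strand, and overlapping matches were all counted. It was found in the promoters of 24 of the 34 matched members, which is 70.6%, against 9.76% of all 27025 genes in the RefSeq table. Counted by promoter, 26 of 42 member promoters held it, which is 61.9%, against 8.56% of 32851. The element of interferon gamma signalling, GAS (TTCNNNGAA, whose letters can overlap an ISRE core), stood in 21.4% of member promoters against 8.3% of all. The STAT6 element stood in 16.7% against 6.95%, and the glucocorticoid response element in 0 of 42 against 0.0396%. A match describes the letters of a window only. The 5 promoters below belong to members whose values are given in full further on. They are the antiviral genes Isg15, Ifit1 and Ifitm3, which were lower under IL4, and the neighbouring GTPase genes Gbp7 and Gbp3, which differed between genotypes; capitals mark the ISRE core.
Isg15, chr4:156200769-156201068, minus strand: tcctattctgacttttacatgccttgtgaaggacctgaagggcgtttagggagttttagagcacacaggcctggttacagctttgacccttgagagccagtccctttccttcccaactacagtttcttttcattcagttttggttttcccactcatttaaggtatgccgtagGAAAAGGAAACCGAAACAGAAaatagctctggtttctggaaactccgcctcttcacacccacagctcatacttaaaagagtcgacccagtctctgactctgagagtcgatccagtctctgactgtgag
Ifit1, chr19:34640639-34640938, plus strand: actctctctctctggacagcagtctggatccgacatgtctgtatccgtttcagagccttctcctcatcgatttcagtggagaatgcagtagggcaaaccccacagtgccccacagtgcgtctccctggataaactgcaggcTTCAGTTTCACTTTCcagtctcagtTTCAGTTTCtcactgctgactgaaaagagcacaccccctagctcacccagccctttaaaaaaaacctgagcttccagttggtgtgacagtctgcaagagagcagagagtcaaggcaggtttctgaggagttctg
Ifitm3, chr7:141010695-141010994, minus strand: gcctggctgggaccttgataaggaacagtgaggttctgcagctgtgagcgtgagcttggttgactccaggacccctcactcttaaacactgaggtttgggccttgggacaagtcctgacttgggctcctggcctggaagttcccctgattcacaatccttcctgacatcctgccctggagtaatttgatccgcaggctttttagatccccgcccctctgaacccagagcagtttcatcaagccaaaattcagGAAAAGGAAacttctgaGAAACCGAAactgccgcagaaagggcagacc
Gbp7, chr3:142530086-142530385, plus strand: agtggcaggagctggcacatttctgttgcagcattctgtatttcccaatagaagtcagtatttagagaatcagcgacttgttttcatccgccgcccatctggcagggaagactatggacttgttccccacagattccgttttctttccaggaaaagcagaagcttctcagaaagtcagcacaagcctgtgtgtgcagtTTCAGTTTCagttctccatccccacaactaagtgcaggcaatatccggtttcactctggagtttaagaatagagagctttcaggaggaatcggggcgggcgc
Gbp3, chr3:142559794-142560093, plus strand: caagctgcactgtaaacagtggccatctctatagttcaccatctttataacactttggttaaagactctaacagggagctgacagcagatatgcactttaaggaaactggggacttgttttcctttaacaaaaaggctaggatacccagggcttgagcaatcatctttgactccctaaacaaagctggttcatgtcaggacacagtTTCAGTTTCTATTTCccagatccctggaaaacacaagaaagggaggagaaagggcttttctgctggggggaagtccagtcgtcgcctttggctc
Isg15 and Ifit1 each held 3 matches, of which those of Isg15 overlap in 1 run. Ifitm3 and Gbp3 held 2 each and Gbp7 held 1. The capitals of Ifitm3 lie just after the start, in the last 50 bases, while those of the other windows shown lie before it. Gbp3 has another RefSeq promoter, which held no ISRE core.

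Libraries held between 20162729 and 48023102 counts. Ncoa2 stood at 16.1 to 26.0 CPM (read counts scaled to library size) in the KO libraries, against 55.7 to 93.4 CPM in the WT libraries, with log2 fold changes between -1.98 and -1.59. All 8 macrophage markers were present in every group, with a summed level of 6017 to 7176 CPM in KO libraries and 6031.5 to 7272 CPM in WT libraries. Summed markers of stromal cells reached only 10.0 to 41.2 CPM in KO libraries, against 148 to 768 CPM in WT libraries. Neutrophil markers reached 6.18 to 17.02 CPM in KO libraries, against 49.1 to 348 CPM in WT libraries. Arg1, an enzyme gene strongly induced by IL4, set 4 libraries without IL4 apart: it stood at 117 and 78.4 CPM in KO vehicle libraries 2 and 3, at 68.0 CPM in KO Dex library 2 and at 67.1 CPM in WT Dex library 1. In every other library without IL4 it was at most 12.2 CPM, in KO Dex library 4. Mgl2, at 82.5 to 126 CPM in WT IL4 libraries, was raised in the same 4. It stood at 36.5 and 27.8 CPM in KO vehicle libraries 2 and 3. In Dex libraries it reached 6.45 CPM in KO 2 and 7.66 CPM in WT 1. It also stood at 1.86 and 3.71 CPM in KO vehicle libraries 1 and 4 and at 2.49 CPM in KO Dex library 4. In WT vehicle it was at most 0.245 CPM, so the line between these libraries and the others is not sharp. Counts of members called that rest on the 4 libraries high in Arg1 are given with and without them, as are most medians. Those split by role or by promoter are given with all libraries only. In such bulk samples fewer cells of a type and less RNA per cell cannot be told apart.

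Per base of exon, the members in vehicle spanned a wide range. Bst2, the tetherin that holds budding virus at the cell surface, was the highest, at a mean of 199 RPKM (CPM per kilobase of exon) in KO vehicle and 214 RPKM in WT vehicle. Ifitm3, which blocks fusion of virus with endosomes, came next, at 56.6 RPKM in KO vehicle and 159.5 RPKM in WT vehicle. Oas1a, Ifi35 and Trim30a followed in both genotypes, between 17.8 and 20.2 RPKM in KO vehicle and between 15.6 and 19.1 RPKM in WT vehicle. Ifi204 (16.5 RPKM) then stood above Slfn5 (13.3 RPKM) in KO vehicle, and below it in WT vehicle (12.5 against 13.3 RPKM). The lowest was Ifi44, at 0.142 RPKM in KO vehicle and 0.137 RPKM in WT vehicle. The members lay on 14 chromosomes, with the Ifit, Oas, Oasl and Gbp genes in clusters. Ifit3 shared 51.2% of its 50-base sequences with Ifit3b, and Oas1a shared 57.6% with Oas1g, so reads of these pairs may have been split or dropped in counting. Parp9 and Dtx3l overlap on opposite strands, and whether strand was used in the counting is not stated in the labels or notes.

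**Figure D1:**
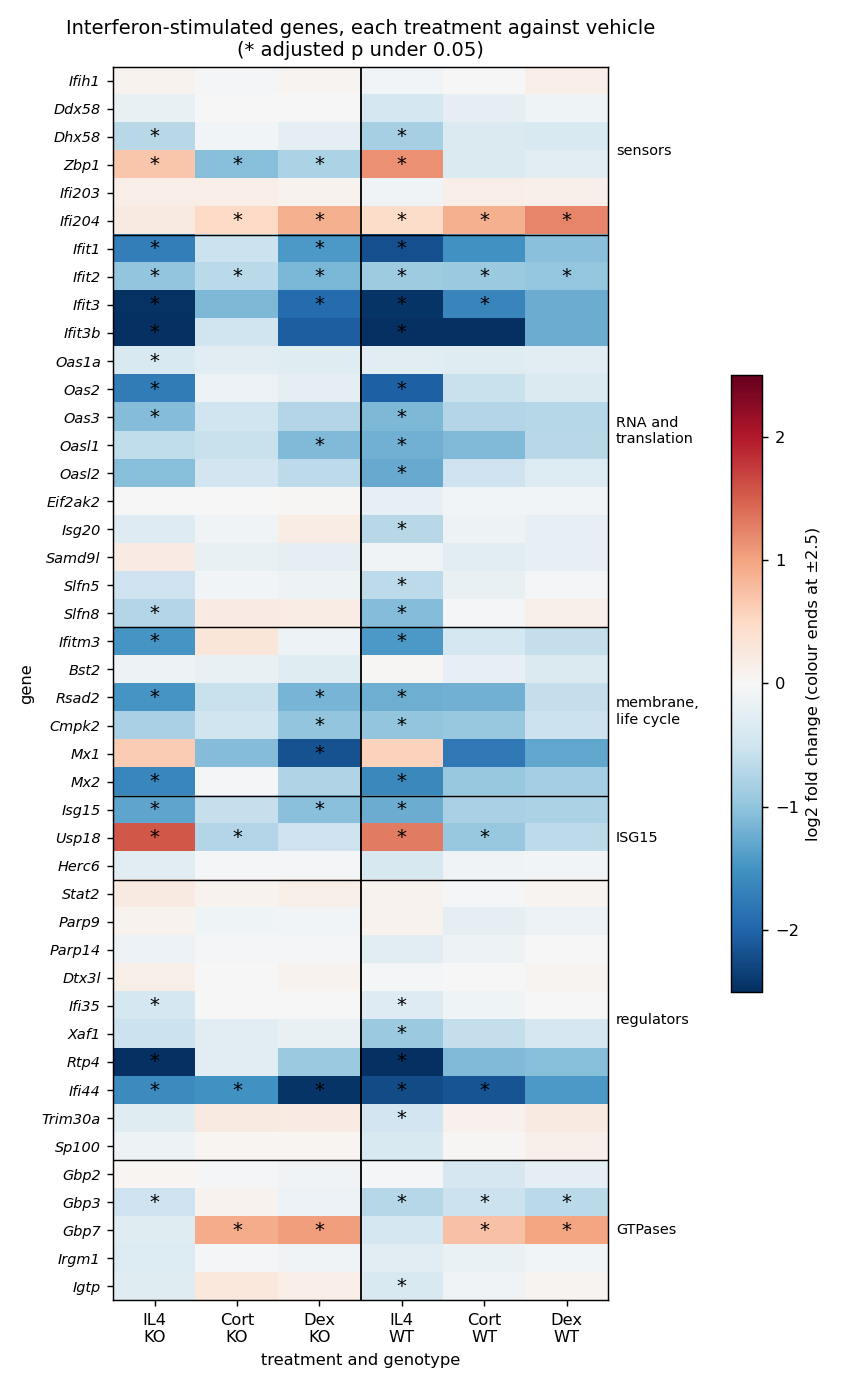
Log2 fold change of each of the 44 members (down the page, grouped by role) in each treatment against vehicle, KO left and WT right; colour gives the fitted log2 fold change, with the scale ending at 2.5 either way, and an asterisk marks an adjusted p under 0.05. Most members of the groups acting on RNA and at membranes are below 0 under IL4 in both genotypes, while Usp18 is above 0, and Ifi204 and Gbp7 are above 0 under both glucocorticoids.

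IL4 lowered most of the set in WT macrophages, and raised 3 members. Of the 44, 24 fell and 3 rose, which is 54.5% and 6.82% of the members, where 15.3% of all 14589 genes were called lower and 14.8% higher (edgeR's quasi-likelihood test, Benjamini-Hochberg adjusted p of 0.05). The median log2 fold change of the members was -0.46, against -0.01 for all genes. The falls were commonest among effectors that act on RNA and translation, where 11 of 14 fell, and among those at membranes and in the viral life cycle, where 4 of 6 fell; the median was -1.10 in both. Of 10 signalling, nuclear and other regulators 5 fell, of 5 GTPases 2 and of 6 nucleic acid sensors 1. All 24 that fell had every IL4 library below every vehicle library, as had 28 of the 44 members, called or not. The share of all genes that separated in this way was not counted.

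Rtp4, an interferon-induced chaperone for membrane receptors (ENSMUSG00000033355, chr16:23520291-23614222, plus strand), fell furthest among members above 5 CPM. It stood at 2.88, 3.57 and 4.15 CPM with IL4, against 16.99, 23.3 and 36.7 CPM with vehicle in WT macrophages. The log2 fold change was -2.86 ± 0.53 (SE, adjusted p = 0.000223), or 7.24-fold lower, and the groups lay far apart. Xaf1, a gene linked to cell death, changed by -0.92 ± 0.24 (adjusted p = 0.00459), and Trim30a, a ubiquitin ligase that restrains innate signalling in the mouse, by -0.48 ± 0.17 (adjusted p = 0.0391). Stat2, the partner of IRF9 described above, was not called: it averaged 51.5 CPM with IL4 and 48.6 CPM with vehicle, a log2 difference of 0.08 with a 95% interval of -0.14 to 0.30.

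Among the effectors that act on RNA, Oas2 makes the second messenger that activates RNase L. It stood at 2.60, 4.14 and 4.42 CPM with IL4, against 9.41, 15.2 and 21.5 CPM with vehicle, a log2 fold change of -2.04 ± 0.45 (adjusted p = 0.00118). Its family members Oasl2 (-1.25 ± 0.42, adjusted p = 0.0286), Oas3 (-1.12) and Oasl1 (-1.20) fell too, while Oas1a at -0.26 was not called. Ifit1 recognises viral RNA whose cap lacks host methylation, and stood at 1.20, 1.21 and 1.24 CPM with IL4 against 3.57, 5.88 and 7.28 CPM with vehicle. Its log2 fold change was -2.19 ± 0.49 (adjusted p = 0.00121), and the 3 IL4 libraries were nearly equal while those with vehicle spread widely. Ifit2, its partner in the same gene cluster, stood at 5.08, 5.69 and 6.12 CPM with IL4 against 8.75, 11.1 and 11.6 CPM with vehicle (log2 fold change -0.90 ± 0.26, adjusted p = 0.00958). Ifit3 (-2.45) and Ifit3b (-3.93) fell at levels under 5 CPM. Slfn8 (-1.09), Isg20 (-0.70) and Slfn5 (-0.66), of the Schlafen family and an RNA exonuclease, were called lower as well. Eif2ak2, which encodes the kinase PKR that halts translation (-0.21), and Samd9l (-0.10) were not called.

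At membranes, Ifitm3 (ENSMUSG00000025492, chr7:141009586-141010770, minus strand) stood at 50.8, 31.7 and 37.3 CPM with IL4, against 123, 84.9 and 116 CPM with vehicle. The log2 fold change was -1.44 ± 0.26 (adjusted p = 0.00018). The neighbours Rsad2, whose product viperin makes a chain-terminating nucleotide, and Cmpk2, a mitochondrial nucleotide kinase, changed by -1.22 ± 0.37 (adjusted p = 0.0132) and -0.98 ± 0.34 (adjusted p = 0.0289). Mx2 fell by 1.61 on the log2 scale at levels near 1 CPM. Mx1, which is known to be defective in C57BL/6 mice, was not called (0.58), nor was Bst2 (0.02).

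Isg15 and its protease moved in opposite directions. Isg15, a ubiquitin-like protein that is attached to others (ENSMUSG00000035692, chr4:156199424-156200818, minus strand), stood at 1.96, 2.73 and 2.695 CPM with IL4 against 4.56, 4.81 and 8.10 CPM with vehicle in WT macrophages. Its log2 fold change was -1.24 ± 0.30 (adjusted p = 0.00251). Usp18, which removes ISG15 and also binds IFNAR2 to dampen signalling (ENSMUSG00000030107, chr6:121245906-121270917, plus strand), stood at 19.3, 17.6 and 18.4 CPM with IL4 against 6.45, 6.83 and 9.33 CPM with vehicle. It rose by 1.29 ± 0.24 on the log2 scale (adjusted p = 0.000178), or 2.45-fold, and no IL4 library came near a vehicle library. Herc6, the main ligase for ISG15 in the mouse, was not called (-0.41).

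Both other members that rose were sensors. Ifi204, a cytosolic and nuclear DNA sensor of the mouse (ENSMUSG00000073489, chr1:173747293-173766943, minus strand), stood at 57.6, 62.8 and 64.3 CPM with IL4 against 39.3, 42.0 and 52.5 CPM with vehicle. The log2 fold change was 0.47 ± 0.12 (adjusted p = 0.00309), with every IL4 library above every vehicle library. Zbp1, a sensor of Z-form nucleic acid, was named after its values were seen, being under 5 CPM, and stood at 4.80, 4.02 and 4.60 CPM with IL4 against 1.75, 1.84 and 2.46 CPM with vehicle (log2 fold change 1.15 ± 0.24, adjusted p = 0.000567). Dhx58, the RNA sensor LGP2, was the sensor that fell (-0.84 ± 0.15, adjusted p = 0.000134). Ddx58 (-0.45) and Ifih1 (-0.06), the RNA sensors RIG-I and MDA5, were not called. Of the GTPases, Gbp3 stood at 4.20, 4.67 and 5.56 CPM with IL4 against 6.64, 8.00 and 9.19 CPM with vehicle (log2 fold change -0.72 ± 0.14, adjusted p = 0.000248), and Igtp changed by -0.38 ± 0.14 (adjusted p = 0.0468). Gbp7, at 6.40, 6.56 and 6.36 CPM with IL4 against 7.80, 8.43 and 9.91 CPM with vehicle, did not pass (-0.44).

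Leaving out WT IL4 library 2 lowered the number of members called under IL4 in WT to 17 of 44, 3 higher and 14 lower. The share of all genes called in that refit is not given here, so a change over all genes cannot be told apart. The WT calls of Rtp4, Oas2, Ifit1, Ifit2, Isg15, Usp18, Zbp1, Ifi204, Dhx58, Xaf1, Gbp3 and Ifitm3 held under every alternative tried. Those of Oasl1, Oasl2, Oas3, Slfn5, Isg20, Cmpk2, Trim30a, Igtp and Ifi35 were lost without 1 or more of the IL4 or vehicle libraries (adjusted p up to 0.215), and that of Rsad2 without WT IL4 library 2 (adjusted p = 0.0629). Plasmacytoid dendritic cells are a rich source of interferon, and of 6 markers listed for them 5 were in the table, which summed to 2.12 to 3.08 CPM with IL4 against 0.957 to 1.79 CPM with vehicle in WT libraries, where 1 of the 5 was at 0 throughout the IL4 group. In KO libraries the sum was 2.05 to 2.997 CPM with IL4 against 1.12 to 1.80 CPM with vehicle, with none at 0 throughout. The higher sums with IL4 came from Cox6a2 alone, at 1.75 to 2.63 CPM with IL4 against 0.736 to 1.52 CPM with vehicle in KO and at 1.52 to 2.56 against 0.581 to 0.95 CPM in WT. The other 4 together stood at 0.306 to 0.388 CPM with IL4 against 0.287 to 0.405 CPM with vehicle in KO and at 0.518 to 0.6 against 0.184 to 0.912 CPM in WT, with overlap in both. The part of such cells in these results was not tested.

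**Figure D2:**
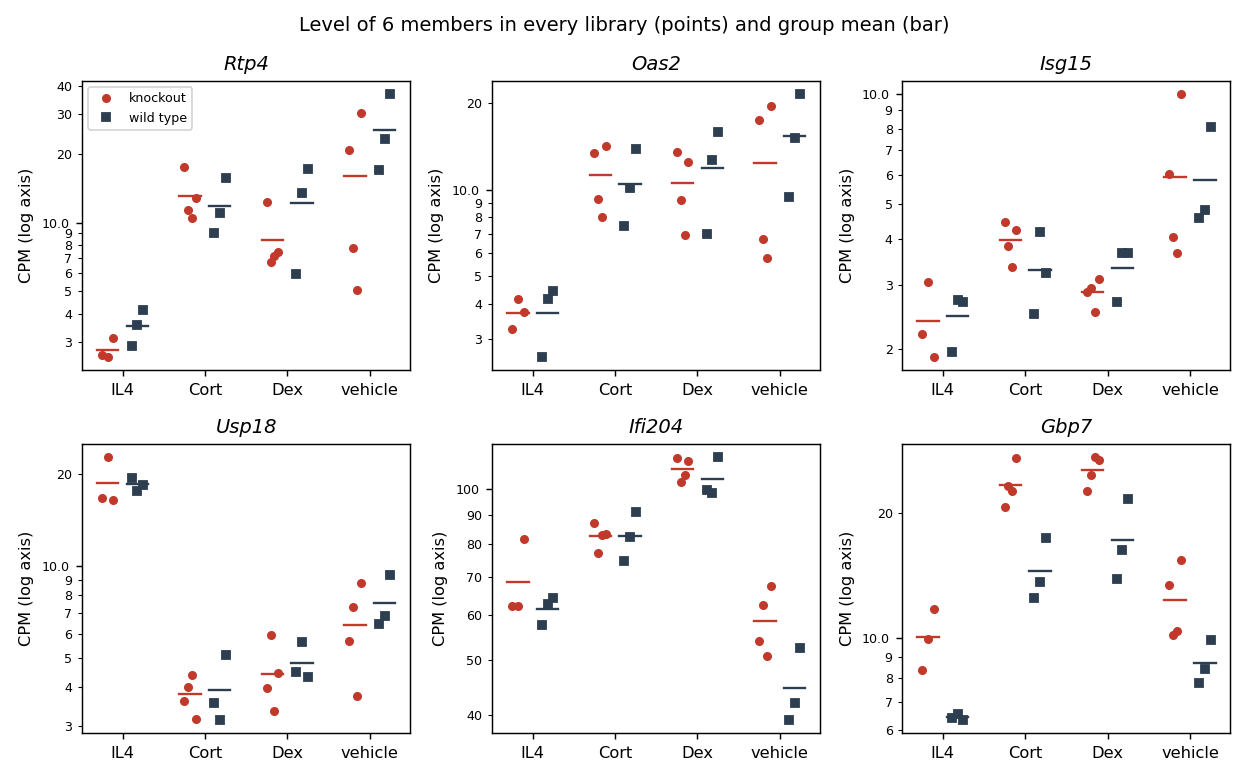
Levels in CPM (log axes) of Rtp4, Oas2, Isg15, Usp18, Ifi204 and Gbp7 in every library, by treatment with vehicle at the right and KO left of WT; points are libraries and bars are group means. Rtp4, Oas2 and Isg15 have their lowest group means with IL4, Usp18 is highest there, and Ifi204 and Gbp7 are highest in the glucocorticoid groups.

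In KO macrophages too IL4 lowered more members than it raised. Of the 44 members 17 fell and 2 rose, which is 38.6% and 4.55%, where 12.0% of all genes were called lower and 14.5% higher. The median was -0.36, against 0.01 for all genes. By role, 8 of 14 effectors on RNA, 3 of 6 at membranes, 3 of 10 regulators, 1 of 6 sensors, 1 of 5 GTPases and Isg15 fell. Rtp4 stood at 2.62, 2.58 and 3.12 CPM with IL4 against 20.8, 7.74, 5.09 and 30.5 CPM with vehicle (log2 fold change -2.53 ± 0.52, adjusted p = 0.00108). Ifitm3 stood at 12.5, 14.7 and 14.2 CPM with IL4 against 49.1, 24.9, 27.4 and 52.0 CPM with vehicle (-1.48 ± 0.26, adjusted p = 0.000257). In both genes every IL4 library was below every vehicle library, and vehicle libraries 2 and 3 were both under libraries 1 and 4. Isg15 stood at 2.20, 3.06 and 1.90 CPM with IL4 against 6.04, 4.06, 3.67 and 9.97 CPM with vehicle (-1.32 ± 0.29, adjusted p = 0.00149).

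Usp18 rose in KO macrophages as well, to 16.7, 22.7 and 16.4 CPM with IL4 against 5.65, 7.33, 3.75 and 8.79 CPM with vehicle (1.55 ± 0.22, adjusted p = 1.7e-05). Zbp1 rose by 0.69 ± 0.21 (adjusted p = 0.0197), with groups that overlapped. Ifi204, at 62.2, 62.3 and 81.9 CPM with IL4 against 54.0, 62.6, 50.9 and 67.5 CPM with vehicle, was not called (0.23). Ifit1 stood at 1.46, 1.09 and 1.13 CPM with IL4 against 5.77, 2.74, 1.44 and 6.67 CPM with vehicle, and was called lower although vehicle library 3 lay within the IL4 range (-1.73 ± 0.47, adjusted p = 0.0081). Without the 4 libraries high in Arg1, 28 members were called lower and 1 higher under IL4 in KO, of 14777 genes tested of which 13.1% and 12.8% were called lower and higher, and the median was -0.57. Rtp4 was then at -3.23 and Usp18 at 1.34. The KO calls of Rtp4, Ifitm3, Isg15, Usp18 and Ifit1 held under every alternative, while that of Zbp1 was lost without KO IL4 library 2 or 4 or vehicle library 1 or 3 (adjusted p up to 0.0856). With the replicate number as a block, which pairs IL4 and vehicle libraries in both genotypes, 27 members were called lower and 3 higher in KO, where 16.6% and 19.1% of all genes were. With only the KO IL4 and vehicle libraries in the fit, 8 were called lower and 1 higher, of 13265 genes tested of which 5.65% and 7.5% were; the median stayed at -0.36.

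**Figure D3:**
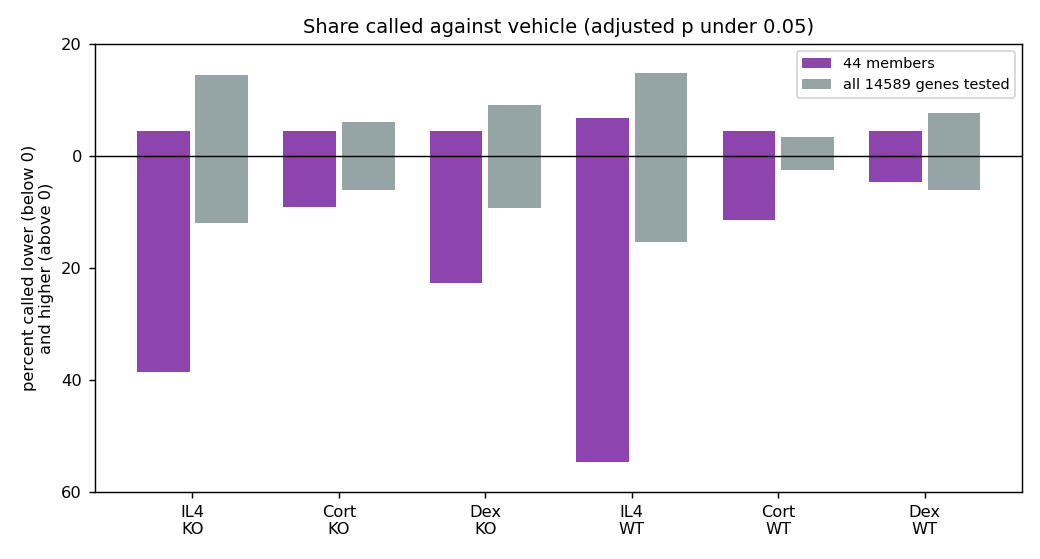
Share of the 44 members and of all 14589 genes tested that were called lower or higher in each treatment against vehicle, KO left and WT right, as bars in percent (lower calls below 0, higher calls above). Under IL4 the members' share called lower, 38.6% in KO and 54.5% in WT, is above that of all genes, 12.0% and 15.3%; their share called higher is below that of all genes in each of the 6 comparisons but Cort in WT.

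In WT macrophages both glucocorticoids raised Ifi204 and Gbp7, and how many members they lowered depended on whether the libraries were paired. Without pairing, 2 rose and 5 fell under Cort, which is 4.55% and 11.4% of the members, where 3.48% of all genes were called higher and 2.46% lower. Under Dex 2 rose and 2 fell, which is 4.55% each, where 7.66% of all genes were called higher and 6.03% lower. With the replicate number as a block, which pairs the libraries of the WT groups, 2 members were called higher and 17 lower under Cort, where 7.08% and 5.19% of all genes were. Under Dex 2 were then called higher and 11 lower, where 12.2% and 9.87% of all genes were. The medians of the members were -0.33 under Cort and -0.29 under Dex, against 0.01 for all genes in both. Both comparisons, and that of IL4, used the same 3 vehicle libraries. The members called higher were Ifi204 and Gbp7 under each steroid.

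Ifi204 stood at 74.9, 82.6 and 91.0 CPM with Cort and at 99.8, 98.4 and 114 CPM with Dex, against 39.3, 42.0 and 52.5 CPM with vehicle in WT macrophages. The log2 fold changes were 0.89 ± 0.12 (adjusted p = 1.25e-05) under Cort and 1.22 ± 0.12 (adjusted p = 4.31e-08) under Dex, a 2.33-fold rise. All 6 steroid libraries were above the 3 vehicle libraries, and above the 3 IL4 libraries too. Ifi204 shared 20% of its 50-base sequences with other genes, mostly its neighbour Ifi211. Gbp7, a guanylate-binding protein of the host defence against intracellular microbes (ENSMUSG00000040253, chr3:142530342-142550149, plus strand), stood at 12.4, 13.6 and 17.3 CPM with Cort and at 13.9, 16.2 and 21.5 CPM with Dex, against 7.80, 8.43 and 9.91 CPM with vehicle. It rose by 0.73 ± 0.17 (adjusted p = 0.00839) under Cort and by 0.98 ± 0.17 (adjusted p = 0.000199) under Dex, with no overlap.

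Its neighbour Gbp3 (ENSMUSG00000028268, chr3:142560026-142573209, plus strand) went the other way in WT. It stood at 5.18, 5.25 and 5.94 CPM with Cort and at 4.53, 5.04 and 5.28 CPM with Dex, against 6.64, 8.00 and 9.19 CPM with vehicle. The log2 fold changes were -0.54 ± 0.14 (adjusted p = 0.0156) under Cort and -0.68 ± 0.14 (adjusted p = 0.00122) under Dex, and no library overlapped with vehicle. Ifit2 fell under both steroids as under IL4, by 0.93 ± 0.26 (adjusted p = 0.0297) under Cort and by 0.98 ± 0.26 (adjusted p = 0.0122) under Dex. Usp18, the gene that IL4 raised, fell under Cort, to 3.55, 3.13 and 5.12 CPM against 6.45, 6.83 and 9.33 CPM with vehicle (-0.94 ± 0.25, adjusted p = 0.0244). With Dex it stood at 4.48, 5.63 and 4.32 CPM and was not called (-0.65). Ifit3 (-1.65) and Ifi44 (-2.16), both low in counts, fell under Cort and were not called under Dex (-1.25 and -1.44). Rtp4 stood at 8.999, 11.1 and 15.7 CPM with Cort and at 5.97, 13.5 and 17.2 CPM with Dex, against 16.99, 23.3 and 36.7 CPM with vehicle, and was not called (-1.11 and -1.06). It was lower with Cort and with Dex than with vehicle in each of the 3 pairs of the same number, and with the replicate block it was called under both (-1.08 ± 0.33, adjusted p = 0.0451, and -1.08 ± 0.34, adjusted p = 0.0306). Isg15 (-0.80 and -0.79) and Ifit1 (-1.49 and -1.07) were also called under both steroids with the block.

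The unpaired counts in WT also depended on single libraries. Without WT Cort library 1 or 2, or without WT vehicle library 3, only 2 members were called under Cort, both higher; without WT Cort library 3 or WT vehicle library 2 there were 4. Without WT Dex library 2, 9 members were called under Dex, 2 higher and 7 lower. Shares of all genes in these refits are not given here, so the counts cannot be set beside them. The calls of Ifi204 under both steroids, and of Gbp7 and Gbp3 under Dex, held under every alternative. Gbp7 under Cort was lost without WT Cort library 3 or vehicle library 1 (adjusted p up to 0.0801), and Gbp3 under Cort without Cort library 1 or 2 or vehicle library 2 or 3 (up to 0.127). Ifit2 was lost under Cort without any 1 of its Cort libraries or vehicle library 2 or 3 (up to 0.131), and under Dex without Dex library 1 or 3 or vehicle library 3 (up to 0.0877). Usp18 under Cort was lost without Cort library 1 or 2 or vehicle library 3 (up to 0.15), Ifi44 likewise (up to 0.0976), and Ifit3 as Ifit2 was under Cort (up to 0.201).

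In KO macrophages Cort raised 2 members and lowered 4, which is 4.55% and 9.09%, where 6.01% of all genes were called higher and 6.07% lower. Dex raised 2 and lowered 10, which is 4.55% and 22.7%, where 9.10% of all genes were called higher and 9.29% lower. The medians were -0.08 under Cort and -0.17 under Dex, against -0.00 for all genes. Ifi204 and Gbp7 again were the members that rose. Ifi204 stood at 87.2, 77.3, 83.0 and 83.5 CPM with Cort and at 113.5, 103, 106 and 112 CPM with Dex, against 54.0, 62.6, 50.9 and 67.5 CPM with vehicle. It rose by 0.50 ± 0.10 (adjusted p = 0.00131) under Cort and by 0.89 ± 0.10 (adjusted p = 4.75e-07) under Dex, without overlap. Gbp7 stood at 20.7, 23.1, 22.5 and 26.98 CPM with Cort and at 22.6, 24.6, 27.2 and 26.7 CPM with Dex, against 13.4, 10.2, 10.4 and 15.4 CPM with vehicle. Its log2 fold changes were 0.92 ± 0.14 (adjusted p = 8.93e-05) and 1.04 ± 0.14 (adjusted p = 9.31e-06), again without overlap.

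The members that Dex lowered in KO macrophages were mostly antiviral effectors. Isg15 stood at 2.86, 2.95, 2.53 and 3.11 CPM with Dex against 6.04, 4.06, 3.67 and 9.97 CPM with vehicle (-1.05 ± 0.26, adjusted p = 0.00481), with no overlap. Ifit2 stood at 4.11, 3.92, 3.89 and 4.48 CPM with Dex against 11.7, 6.06, 5.65 and 12.8 CPM with vehicle (-1.14 ± 0.23, adjusted p = 0.000847), also with no overlap. Ifit1 (-1.44 ± 0.41, adjusted p = 0.0161), Rsad2 (-1.16 ± 0.32, adjusted p = 0.0126) and Cmpk2 (-0.99 ± 0.29, adjusted p = 0.0199) were called lower with groups that overlapped. Ifit3 (-1.93), Ifi44 (-2.46), Mx1 (-2.18), Oasl1 (-1.10) and Zbp1 (-0.78) fell at levels under 5 CPM. Under Cort the falls were Ifit2 (-0.68 ± 0.22, adjusted p = 0.0496), Usp18 (-0.74 ± 0.22, adjusted p = 0.0275), Zbp1 (-1.07) and Ifi44 (-1.50). Gbp3 was not called under either steroid in KO, at 0.10 under Cort and -0.15 under Dex.

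The steroid counts in KO rested on the vehicle libraries. Without the 4 libraries high in Arg1, 14 members were called lower and 2 higher under Cort in KO, where 3.59% and 2.78% of all genes were, and the 6 members called with all libraries were among them. Under Dex 18 were called lower and 2 higher, where 6.54% and 5.56% of all genes were. The medians were then -0.37 and -0.42. Without KO vehicle library 4 they were 0.08 and -0.00 instead, so the median under Cort turned positive. When each KO steroid group was fitted with vehicle alone, 2 were called higher and 1 lower under Cort, where 5.89% and 6.05% of all genes were, and 2 higher and 4 lower under Dex, where 8.15% and 7.67% were. With all groups fitted but the 4 libraries high in Arg1 left out, Isg15 stood at -1.03 under Cort and -1.51 under Dex. Rtp4 was then at -0.99 and -1.54, and all 4 were called. Without KO vehicle library 4 the number called under Dex was 7, 2 higher and 5 lower. The share of all genes called in that refit is not given here. Ifit1, Rsad2, Cmpk2, Oasl1 and Zbp1 were among the Dex calls lost without that library (adjusted p up to 0.0933). Under Cort the call of Ifit2 was lost without any 1 of the KO Cort libraries or vehicle library 1 or 4 (up to 0.207), that of Usp18 without Cort library 1 or 4 or vehicle library 2 or 4 (up to 0.122), and that of Ifi44 without Cort library 3 or vehicle library 4 (up to 0.183). The calls of Ifi204 and Gbp7 under both steroids, and of Isg15 and Ifit2 under Dex, held under every alternative. In WT, leaving out the libraries high in Arg1 left 2 members called higher and 2 lower under Dex, where 7.46% and 6.35% of all genes were.

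Dex and Cort were given at 100 and 500 nM, so their doses were not matched, and the differences between them are those of these treatments. No member was called by edgeR in KO, where 0.178% of all genes were called higher and 0.144% lower with Dex than with Cort, nor in WT, where 0.151% were called higher and 0.0343% lower. At an unadjusted p under 0.05 there were 3 members in KO (6.82%, against 6.79% of all genes) and 1 in WT (2.27%, against 3.71%), near the shares of all genes, and DESeq2 called 1 member in KO and 0 in WT. The medians were -0.07 in KO and 0.11 in WT, and -0.03 and 0.24 without the 4 libraries high in Arg1, where no member was called either. Ifi204 came nearest, at 0.39 ± 0.10 in KO (95% interval 0.19 to 0.60, adjusted p = 0.0915) and 0.33 ± 0.11 in WT (0.09 to 0.57, adjusted p = 0.741). With the replicate number as a block it was called in KO (0.39 ± 0.07, adjusted p = 0.00364), where 1.07% of all genes were called higher and 0.809% lower. For Gbp7 the intervals were -0.17 to 0.41 in KO and -0.09 to 0.59 in WT, and for Isg15 -1.01 to 0.07 in KO and -0.60 to 0.64 in WT.

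Set directly against each other, IL4 and Dex separated the members into a few higher and more lower with IL4. In KO 4 members were called higher with IL4 than with Dex and 11 lower, where 20.2% of all genes were called higher and 17.8% lower. In WT 4 were called higher and 12 lower, where 15.0% of all genes were called higher and 16.7% lower. The medians were -0.27 in KO and -0.44 in WT. Without the 4 libraries high in Arg1, 4 members were called higher and 14 lower in KO, where 19.6% and 19% of all genes were (median -0.26), and 4 higher and 19 lower in WT, where 17.1% and 16.3% were (median -0.53). Higher with IL4 in both genotypes were Usp18 (2.07 in KO, 1.94 in WT), Mx1 (2.81 and 1.87) and Zbp1 (1.47 and 1.43). The other calls on that side were Samd9l in KO (0.47) and Bst2 in WT (0.37). Lower with IL4 in both were Rtp4 (-1.59 in KO, -1.80 in WT), Oas2 (-1.51 and -1.67), Gbp7 (-1.34 and -1.42), Ifitm3 (-1.34 and -0.84) and Ifi204 (-0.66 and -0.76), along with Slfn8, Dhx58, Trim30a, Igtp and Ifi35. The number in WT was 9 without WT IL4 library 1 and 7 without WT Dex library 3. Shares of all genes in these refits are not given here. Rtp4 was lost in WT without WT IL4 library 1 or WT Dex library 3 (adjusted p up to 0.0707). In KO it was lost without KO IL4 library 1 or 2 or KO Dex library 1 (up to 0.0623). Ifitm3 was lost in WT without WT IL4 library 2 or 3 or WT Dex library 3 (up to 0.0943).

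**Figure D4:**
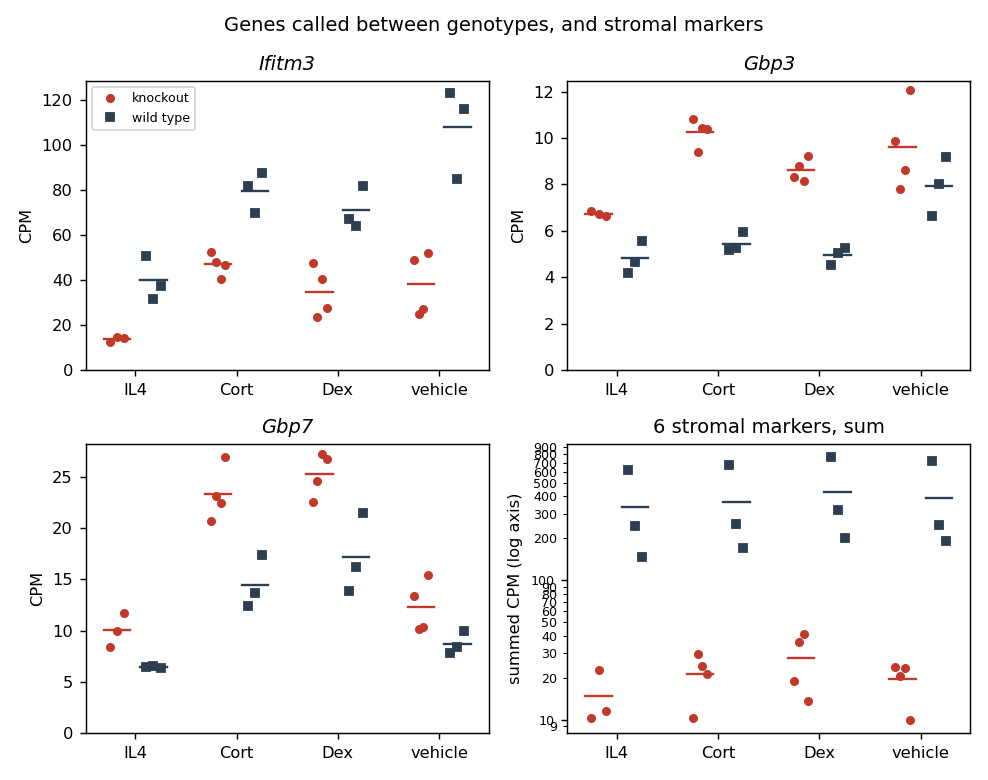
Levels in CPM of Ifitm3, Gbp3 and Gbp7 in each library on linear axes, and the summed CPM of 6 stromal markers on a log axis, KO left of WT within each treatment; points are libraries and bars are group means. Ifitm3 is lower and Gbp7 higher in every KO library than in every WT library of the same treatment, and the stromal sum is 10.0 to 41.2 CPM in KO against 148 to 768 CPM in WT.

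Between genotypes few members were called. In each treatment 2 members were called higher in KO and 1 lower, which is 4.55% and 2.27%. Of all genes 8.47% were called higher and 10.3% lower in KO with vehicle, 5.76% and 6.59% with IL4, 5.46% and 8.95% with Cort, and 6.70% and 10.5% with Dex, so the members' shares were below those of all genes throughout. The members' medians were -0.00 with vehicle, 0.08 with IL4, 0.16 with Cort and -0.05 with Dex. Without the 4 libraries high in Arg1 the vehicle median was 0.26. With Cort 9 of the 44 members were lower in KO and 35 higher, called or not, where 48.4% of all genes were lower. At an unadjusted p under 0.05 by edgeR there were 18.2% of the members with Cort, against 25.7% of all genes. All 5 GTPases, Gbp2, Irgm1 and Igtp among them, had every KO Cort library above every WT Cort library, though only 2 were called. The share of all genes that separated in this way was not counted, so this does not set the GTPases apart.

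Ifitm3 was the member lower in KO in all 4 treatments. With vehicle it stood at 49.1, 24.9, 27.4 and 52.0 CPM in KO against 123, 84.9 and 116 CPM in WT (-1.50 ± 0.24, adjusted p = 0.00013). With IL4 it stood at 12.5, 14.7 and 14.2 CPM in KO against 50.8, 31.7 and 37.3 CPM in WT (-1.54 ± 0.28, adjusted p = 0.00107), the lowest levels of both genotypes. With Cort it stood at 52.6, 48.0, 40.7 and 46.8 CPM in KO against 81.8, 70.1 and 87.7 CPM in WT (-0.76 ± 0.24, adjusted p = 0.0332), and with Dex the log2 fold change was -1.03 ± 0.24 (adjusted p = 0.0042). KO and WT libraries did not overlap in any treatment. Ifitm3 is widely expressed, in stromal cells and neutrophils too. Summed stromal markers, none of the 6 at 0 throughout a group but 1 in KO Cort, were 10.4 to 22.9 CPM in KO and 148 to 621 CPM in WT with IL4, 10.2 to 29.6 against 170 to 673 CPM with Cort, 13.7 to 41.2 against 200 to 768 CPM with Dex and 10.0 to 24.0 against 191 to 721 CPM with vehicle. As all KO libraries lay below all WT libraries in these sums, as in Ifitm3, the 2 cannot be told apart. The library with the highest stromal sum in each WT group was number 1, and Ifitm3 was highest in number 1 with vehicle and IL4 and in number 3 with Cort and Dex.

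Gbp7 was higher in KO in all 4 treatments. With vehicle it stood at 13.4, 10.2, 10.4 and 15.4 CPM in KO against 7.80, 8.43 and 9.91 CPM in WT (0.50 ± 0.16, adjusted p = 0.0299). With IL4 it stood at 8.38, 9.95 and 11.7 CPM in KO against 6.40, 6.56 and 6.36 CPM in WT (0.63 ± 0.18, adjusted p = 0.0197). The log2 fold changes were 0.69 ± 0.16 with Cort (adjusted p = 0.00331) and 0.55 ± 0.15 with Dex (adjusted p = 0.0145), and no KO library overlapped with WT in any treatment. Gbp3 was higher in KO with 3 treatments. With Cort it stood at 10.8, 9.39, 10.4 and 10.4 CPM in KO against 5.18, 5.25 and 5.94 CPM in WT (0.91 ± 0.13, adjusted p = 3.47e-05), and with Dex at 8.31, 8.81, 8.16 and 9.23 CPM in KO against 4.53, 5.04 and 5.28 CPM in WT (0.80 ± 0.13, adjusted p = 0.000163). With IL4 the log2 fold change was 0.48 ± 0.14 (adjusted p = 0.0239), and with vehicle it was 0.27 and not called. Ifi204 was higher in KO with vehicle (0.40 ± 0.11, adjusted p = 0.0112), with libraries that overlapped, and was not called with IL4 (0.16), Cort (-0.00) or Dex (0.06). Gbp2, the third gene of that cluster among the members, was not called with any treatment (0.01 with vehicle, 0.40 with Cort).

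Single libraries decided part of the genotype calls. Without WT vehicle library 1 or 2, 1 member was called with vehicle, and likewise 1 with IL4 without WT IL4 library 1 or 2 or KO IL4 library 4; in each case it was Ifitm3. When KO and WT of a treatment were fitted alone, 1 member was called lower and none higher in KO with vehicle and with IL4, and 8 higher and 1 lower with Cort, where 7.55% and 9.92% of all genes were. Shares of all genes in the vehicle and IL4 refits are not given here, so those counts cannot be set beside them. Gbp7 was also lost without KO vehicle library 1 or 4 with vehicle (adjusted p up to 0.141), without WT IL4 library 3 with IL4 (up to 0.124) and without WT Dex library 1 or 2 with Dex (up to 0.111). Gbp3 with IL4 was lost without any 1 of 5 libraries (up to 0.2), Ifi204 with vehicle without WT vehicle library 1 or 2 (up to 0.0916), and Ifitm3 with Cort without any 1 of 5 libraries (up to 0.111). The calls of Ifitm3 with vehicle, IL4 and Dex, of Gbp3 with Cort and Dex and of Gbp7 with Cort held under every alternative. Without the 4 libraries high in Arg1, 5 members were called higher in KO and 1 lower with vehicle, where 4.81% and 6.56% of all genes were, and the median was 0.26. The added calls were Gbp3 (0.46), Trim30a (0.46) and Irgm1 (0.45). With Dex 1 was then called higher and 6 lower, where 3.53% and 5.79% of all genes were, the lower ones being Ifit1 (-1.07), Ifit3 (-1.21), Ifit3b (-2.11), Rsad2 (-1.14), Cmpk2 (-0.98) and Ifitm3 (-0.93).

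Whether the response of a member differed between genotypes was tested by the interaction of genotype and treatment. No member passed in any of the 3 treatments, with edgeR or with DESeq2. Of all genes 0.00685% were called with a higher and 0.0206% with a lower response in KO under IL4, 0.00685% and 0.0137% under Cort, and 0.0480% and 0.137% under Dex. At an unadjusted p under 0.05 there were 0 members under IL4 (against 9.07% of all genes), 4 under Cort (9.09%, against 6.35%) and 2 under Dex (4.55%, against 6.03%). The medians were 0.15 under IL4, 0.21 under Cort and -0.01 under Dex. Without the 4 libraries high in Arg1 they were -0.16, -0.06 and -0.37, so the sign turned under IL4 and Cort, and again no member passed. Gbp3 came nearest: its response was higher in KO by 0.64 ± 0.18 under Cort (95% interval 0.27 to 1.01, unadjusted p = 0.00149, adjusted p = 0.222) and by 0.53 ± 0.18 under Dex (adjusted p = 0.435). Ifi204 had a smaller response in KO under Cort, by -0.40 with an interval of -0.71 to -0.08 (adjusted p = 0.505). For the IL4 response the intervals were wide, at -1.17 to 1.83 for Rtp4, -0.93 to 0.77 for Isg15 and -0.41 to 0.93 for Usp18. With the replicate number as a block 1 member passed under Cort, with a higher response in KO, where 0.288% of all genes were called higher and 0.466% lower.

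The genes of the interferon pathway itself were followed on a list of 43, of which 35 were in the table and 32 were tested. Of 10 ligand genes 3 were in the table, and Ifnb1 had 6 counts over all 27 libraries, Ifnk 4 and Ifng 2, never more than 1 in a library. Under IL4 7 of the 32 were called higher and 9 lower in KO, where 14.5% and 12.0% of all genes were, and 9 higher and 11 lower in WT, where 14.8% and 15.3% were. Under Cort 4 and 3 were called in KO, where 6.01% and 6.07% of all genes were, and 2 and 5 in WT, where 3.48% and 2.46% were. Under Dex 4 and 5 were called in KO, where 9.10% and 9.29% of all genes were, and 5 each way in WT, where 7.66% and 6.03% were. Between genotypes 4 were higher and 1 lower in KO with vehicle, 3 and 0 with IL4, 3 and 0 with Cort, and 1 each way with Dex, beside the shares of all genes given above for those comparisons. None of these pathway counts is given without the 4 libraries high in Arg1, whose part in them was not tested. In KO vehicle libraries 1 to 4 Jak2 stood at 62.97, 127.1, 113.9 and 75.7 CPM, against 47.01 to 53.48 CPM in WT vehicle. Socs1 stood at 3.91, 57.4, 10.96 and 5.11 CPM there, against 2.697 to 4.08 CPM. In both genes libraries 2 and 3, high in Arg1, were the highest. Tlr7 did not follow them, at 262, 243, 265 and 309 CPM against 109 to 125 CPM.

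Irf9, which gives the STAT2 complex its DNA contact at the ISRE, fell under IL4. It stood at 31.1, 32.0 and 29.1 CPM with IL4 against 51.4, 36.5, 35.1 and 54.0 CPM with vehicle in KO, and was called lower (-0.52). In WT it stood at 23.1, 28.1 and 30.8 CPM with IL4 against 38.8, 43.9 and 53.0 CPM with vehicle (-0.73 ± 0.16, adjusted p = 0.00113), again with no overlap. The Irf9 call in KO was lost without IL4 library 4 or vehicle library 4 (adjusted p up to 0.0602). Irf7, which amplifies interferon production, was not called in KO (-0.62, adjusted p = 0.145) or in WT (-0.84 ± 0.33, adjusted p = 0.0581). Socs1, a feedback inhibitor of the Janus kinases and itself known to be induced by IL4, moved most. In KO it stood at 131, 115 and 59.3 CPM with IL4 against 3.91, 57.4, 10.96 and 5.11 CPM with vehicle (2.42), where vehicle library 2 nearly reached the lowest IL4 library. In WT it stood at 98.5, 114 and 105 CPM with IL4 against 4.08, 2.697 and 2.94 CPM with vehicle (5.03). Jak2, a kinase of the interferon gamma receptor, was called higher too (1.55 in KO, 2.18 in WT), while Tlr9, a sensor of unmethylated DNA, was called lower (-1.17 in KO, -1.85 in WT). The KO values without the 4 libraries high in Arg1 were 4.47 for Socs1, 1.98 for Jak2, -1.71 for Tlr9 and -0.79 for Irf9, all called, and Irf7 was called too (-1.06).

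Among pathway genes called under both glucocorticoids in both genotypes, Tlr7 moved most; it is the endosomal sensor of single-stranded RNA. In KO it stood at 516, 529, 593 and 678 CPM with Cort and at 594, 623, 682 and 729 CPM with Dex, against 262, 243, 265 and 309 CPM with vehicle (1.10 and 1.28). In WT it stood at 246, 275 and 276 CPM with Cort and at 261, 350 and 365 CPM with Dex, against 109, 125 and 119 CPM with vehicle (1.18 and 1.47). It was also higher in KO than in WT in each treatment, by 1.20 with vehicle, 1.41 with IL4, 1.12 with Cort and 1.01 with Dex. Tbk1, a kinase that activates IRF3, was called higher under both steroids (0.25 and 0.32 in KO, 0.22 and 0.27 in WT). Its relative Ikbke was called lower under Dex in KO (-0.54) and under both in WT (-0.68 and -0.89). Socs1 was called lower under Cort in KO (-3.34), where its vehicle libraries ranged from 3.91 to 57.4 CPM. With the 4 libraries high in Arg1 left out Socs1 was at -1.29 under Cort in KO and still called, and Ikbke was called lower under Cort as well (-0.48). Irf9 and Irf7 were not called under either steroid in either genotype, but without those libraries Irf7 was called lower in KO (-1.05 under Cort, -1.13 under Dex).

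Within groups the members moved together from library to library. After each group's mean was taken out, the first principal component held 68.3% of the members' variance over the 27 libraries. Of the 44 members 39 correlated with the mean of the others above 0.5, with a median r of 0.80; this describes libraries that share depth and culture, and no test was made. Bst2 alone was below 0, at -0.11. The spread within groups was largest for Rtp4, with a standard deviation of 0.60 on the log2 scale, Oas2 (0.53) and Ifit1 (0.52), and smallest for Stat2 (0.13).

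**Figure D5:**
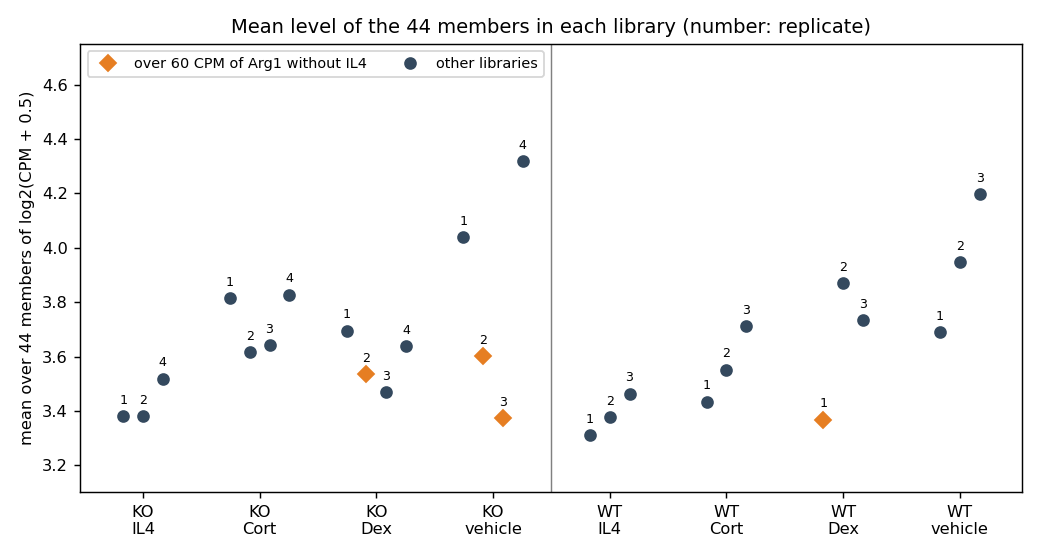
Mean of log2(CPM + 0.5) over the 44 members in each library, KO groups left and WT groups right, treatments left of vehicle; points are libraries with their replicate number, and diamonds mark the 4 high in Arg1 without IL4. KO vehicle libraries span 3.37 to 4.32, more than any other group, and the IL4 groups are the tightest.

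As the plot of member means by library shows, the widest spread lay in KO vehicle, where libraries 1 to 4 stood at 4.04, 3.60, 3.37 and 4.32, the mean over members of log2(CPM + 0.5). Libraries 2 and 3, those high in Arg1, were both below libraries 1 and 4 in 37 of the 44 members, which is 84.1%, against 24.2% of all genes tested, and both above them in 0 members. In KO macrophages the means were 3.38, 3.38 and 3.52 with IL4, between 3.62 and 3.83 with Cort and between 3.47 and 3.70 with Dex, so that vehicle library 3 reached the level of the IL4 libraries. In WT macrophages the means were 3.31, 3.38 and 3.46 with IL4, 3.43, 3.55 and 3.71 with Cort, 3.37, 3.87 and 3.73 with Dex and 3.69, 3.95 and 4.20 with vehicle. WT library 1 was the lowest of its group for 29 members with IL4, 32 with Cort, 36 with Dex and 38 with vehicle. The share of all genes lowest in WT library 1 was not counted, so these counts cannot be set beside it. These libraries numbered 1 also had the highest stromal and neutrophil sums of their groups, and the part of those cells in the members' levels was not tested.

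Members with and without an ISRE core in the promoter window were described side by side. Under IL4 11 of the 24 with the core fell in KO, with a median of -0.36, and 2 of the 10 without it, with a median of -0.49. Of all genes 12.0% were called lower there. In WT 13 of the 24 with the core fell, with a median of -0.46, and 7 of the 10 without it, with a median of -0.80, against 15.3% of all genes. Under Dex 5 of the 24 and 3 of the 10 fell in KO, where 9.29% of all genes did. In WT 1 of the 24 and 1 of the 10 fell under Dex, where 6.03% of all genes did. The 3 members that differed between genotypes with IL4, Cort and Dex, Ifitm3, Gbp7 and Gbp3, had the core in at least 1 promoter, as shown in the sequences above. So did 24 of all 34 matched members, or 70.6%, so this does not set the 3 apart. Ifi204, called between genotypes with vehicle, had no promoter match.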

How the data were processed

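Raw read counts per gene were analysed as deposited by the authors, in 1 table of 27 libraries; per the labels, poly(A) RNA was made into libraries with a directional kit and read as 50 bp pairs. The submitters' processing notes name fastp 0.23.2, STAR 2.7.0, featureCounts, edgeR 3.38.4 and build mm10; the counter's version and strand setting are not given in the sources used here. Libraries held 20162729 to 48023102 counts.

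Here genes passed edgeR's filterByExpr with a minimum count of 10. Counts were scaled by TMM and fitted over all 8 groups with edgeR 4.0.16 (glmQLFit, glmQLFTest; limma 3.58.1, R 4.3.3) in 17 comparisons. P-values were adjusted by Benjamini-Hochberg over all 14589 genes, with a threshold of 0.05. Errors are standard errors (SE), and intervals are 95%. CPM used TMM-scaled library sizes, with a pseudocount of 0.5 before logs. RPKM divides CPM by exon length in GENCODE M21, which held 29815 of the 29872 gene IDs.

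The members and lists were chosen with earlier results of these data known. Full values were given to Ifit1, Ifit2, Isg15, Usp18, Ifi204, Stat2 and Rtp4, and to called members above 5 CPM in the higher group that were among the 3 largest changes of their role; pathway genes could be named. Groups follow the labels, and replicate numbers come from the sample titles. Deviations from group means correlated at 0.112 to 0.713 between libraries of the same number for treatment comparisons within a genotype, except Dex against vehicle in KO (0.00519 to 0.363), so those numbers were taken to pair libraries; between genotypes they did not (-0.236 to 0.0342). Alternatives were DESeq2 1.42.0, RLE scaling, no filter, a replicate block, a fit of only the groups compared, each library left out, and the 4 libraries high in Arg1 left out. The fit was tested on simulated data. Counting error and library spread alone set the precision, as no technical repeats were used.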

Additional observations from a re-analysis of the deposited data

Results flagged for a closer look

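Among groups of 4 libraries, 3 of 132 member and group sets held a library far from the others by Dixon's test; chance flags about 1 in 20 groups, or 6.6 here. Rsad2 stood at 4.90 CPM in KO Cort library 1, against 4.01 to 4.15 CPM in the other 3. Rtp4 stood at 12.3 CPM in KO Dex library 1, against 6.70, 7.13 and 7.46 CPM in the others. Oasl1 stood at 0.499 CPM in KO vehicle library 3, against 1.39 to 1.56 CPM in the others.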

How the results depend on the processing

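Counts of members called are given against those in the report. Where a refit's count has no share of all genes beside it, a change in the members cannot be told from one over all genes. Under IL4 the count in KO was 30 with the replicate block, 9 with only the groups compared and 29 without the 4 libraries high in Arg1; in WT it was 17 to 30 with 1 library left out. Under Cort it was 3 in KO with only the groups compared and 16 without those 4 libraries; in WT it was 4 without the filter, 11 with DESeq2, 19 with the replicate block and 2 to 7 with 1 library left out. Under Dex it was 6 in KO with only the groups compared, 20 without the 4 libraries and 7 to 18 with 1 left out; in WT it was 13 with the block and 3 to 9 with 1 left out. Between genotypes it was 1 (only the groups compared), 6 (without the 4) and 1 to 3 (1 left out) with vehicle, 1 and 1 to 3 (only the groups compared, 1 left out) with IL4, 9 (only the groups compared) with Cort and 7 (without the 4) with Dex. The interaction of genotype and Cort gave 1 with the replicate block, Dex against Cort in KO gave 1 each with DESeq2, the block and only the groups compared, and IL4 against Dex in WT gave 7 to 18 with 1 left out. The cause was not tested. Over all 17 comparisons RLE scaling left every count within 1.5 times. Of 125 called results for named genes, 63 kept their call under every alternative, 62 lost it under at least 1 and 0 reversed; 25 of 133 uncalled ones became called under at least 1. The replicate block changed no other count by over 1.5 times. With 3 or 4 libraries a group, changes in genes at or under 1 CPM, such as Ifi44 and Mx2, rest on few counts.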
